A study of Mus musculus with 8 samples.

Results

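The genes described here are 8 interferon-induced genes of the mouse, Ifi35, Ifit1, Ifit2, Ifit3, Isg15, Irf7, Usp18 and Mx1, measured by 9 probe sets in testis RNA. Members were taken as every probe set whose annotation gives 1 of these 8 symbols and no other, out of 8251 genes so named on the array. All 8 genes were on the array, with 2 probe sets for Irf7 and 1 for each of the others. The set was selected on the intensity of Ifi35, which was known to be high in castaneus and ssp, 2 of the 4 groups of mice, so the values of Ifi35 are given as a description and carry no test.

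Total testis RNA of house mice was hybridised to Affymetrix arrays of 12422 probe sets, a probe set being a group of short probes that report 1 transcript. The 8 arrays form 4 groups of 2, called castaneus, ssp, domesticus and musculus after the last word of the taxon in each title. The labels name the 2 arrays of a group as technical replicates, so every p-value below measures the spread between technical arrays and not between animals. Strain, age, treatment and the number of animals are not stated by the labels, and neither is the meaning of ssp. Whether the probes match the transcripts of the 4 groups equally well was not tested. A difference in probe match and a difference in RNA level therefore cannot be told apart here.

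Interferons are secreted proteins that warn cells of viral infection. Type I interferons bind the receptor chains Ifnar1 and Ifnar2, the kinases Jak1 and Tyk2 pass the signal on, and transcription factors that include Irf9 then bind a short promoter element, the interferon-stimulated response element. The induced proteins then block viral entry, translation or assembly, and as a set they usually move together. In testis, Sertoli cells, Leydig cells and macrophages are known to respond to interferon. In whole testis RNA, fewer cells of a type and less RNA per cell cannot be told apart.

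The promoters of the members were searched for the letters of that element. Of the 8 genes, 6 were found by symbol in a RefSeq table of promoters of assembly GRCm38.p6, the C57BL/6J reference, and Usp18 and Mx1 were not in the table. Each entry holds 300 bases, 250 before the start of transcription and 50 after it. The core of the response element was searched as GAAANNGAAA on both strands, which 3.44% of all 32851 promoters in the table hold. Ifit1, Ifit3 and Isg15 held it, and the letters were not found in the windows of Ifi35, Ifit2 (either of its 2 promoters) or Irf7. Only exact letters within the 300 bases were searched, so an inexact or more distant element could not be found. Stretches of 60 bases around the matches are printed 5′ to 3′ on the strand of the gene, with the matches in capitals.
Ifit1: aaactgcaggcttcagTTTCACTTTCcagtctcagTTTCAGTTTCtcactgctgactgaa
Ifit3: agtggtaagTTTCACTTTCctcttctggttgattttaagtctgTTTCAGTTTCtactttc
Isg15: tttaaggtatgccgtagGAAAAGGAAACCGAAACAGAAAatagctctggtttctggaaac
The Ifit1 stretch lies at chr19:34640769-34640828 (plus strand), that of Ifit3 at chr19:34583364-34583423 (plus strand) and that of Isg15 at chr4:156200854-156200913 (minus strand). Ifit1 and Ifit3 each held 2 matches, with the same letters in both genes, and the 3 matches of Isg15 overlap one another. The 250 bases before the start of Ifi35, at chr11:101448162-101448411 (plus strand), are shown because this is the member whose level set it apart.
Ifi35: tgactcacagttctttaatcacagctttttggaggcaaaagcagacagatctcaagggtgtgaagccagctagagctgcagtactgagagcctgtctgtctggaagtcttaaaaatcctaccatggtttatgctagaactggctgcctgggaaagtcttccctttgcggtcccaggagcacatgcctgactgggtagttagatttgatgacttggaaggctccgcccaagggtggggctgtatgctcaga
These are letters of the reference genome, not of the mice on the arrays. A second motif, TTCNNNGAA, held by 8.3% of all promoters in the table, was found in Ifi35 and in 1 of the 2 Ifit2 promoters. The Ifi35 match lay outside its 250 bases before the start.

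Ifi35 was present at high intensity in castaneus and ssp and was dim in domesticus and musculus. Ifi35 encodes a leucine zipper protein that is induced by type I and type II interferon and binds Nmi, another induced protein. Its probe set, 100013_at, read 793.8 and 559.3 intensity units on the castaneus arrays and 219.1 and 351.1 on the ssp arrays. It read 63.6 and 14.8 on the domesticus arrays and 57.7 and 26.3 on the musculus arrays. All 4 arrays of castaneus and ssp lay above all 4 of domesticus and musculus, and neither castaneus array overlapped the ssp arrays. For scale, the median probe set of an array read 151 to 183.

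Intensities under 18.7, their 10th percentile over all arrays, were set to that value, called the floor, before taking log2, and group levels are geometric means. Ifi35 averaged 666.3 in castaneus (SD 0.36 log2, n = 2) and 277.4 in ssp (SD 0.48 log2, n = 2). It averaged 34.5 in domesticus (SD 1.25 log2, n = 2) and 39.0 in musculus (SD 0.80 log2, n = 2). The order of levels was therefore castaneus, ssp, musculus and domesticus. The step between castaneus and ssp, 2.40-fold, exceeded the spread of either pair of arrays, whereas the musculus and domesticus arrays overlapped.

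Ifi35 was 19.3-fold higher in castaneus than in domesticus and 17.1-fold higher in castaneus than in musculus. It was 8.04-fold higher in ssp than in domesticus and 7.12-fold higher in ssp than in musculus. One of the 2 domesticus arrays was at the floor, so the folds against domesticus depend on that floor. Without domesticus replicate 1 the fold of castaneus over domesticus was 35.6 and that of ssp over domesticus 14.8. Without domesticus replicate 2 these folds were 10.5 and 4.36.

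**Figure D1:**
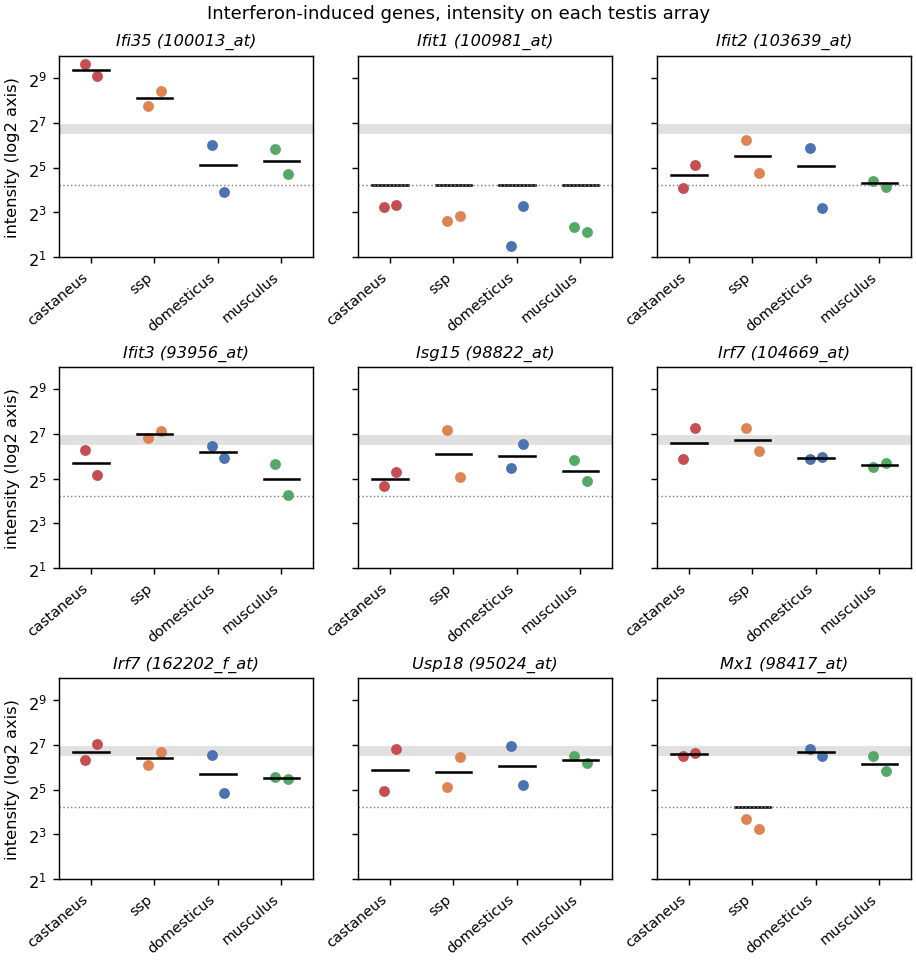
Intensity of each of the 9 member probe sets on each array (log2 axis), by group. Points are single arrays, black bars geometric means after the floor, the dotted line the floor at 18.7, and the grey band the 40th percentile of the arrays (94.7 to 118.9); Ifi35 alone rises far above the band, in castaneus and ssp, and Mx1 drops below the floor in ssp.

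Of the probe sets of the other 7 genes, only those of Irf7 had castaneus and ssp as the 2 highest means. Most values of these 7 genes were dim. Only 7 of their 64 values reached the 40th percentile of the array, which was 94.7 to 118.9. Probe sets below that percentile on 7 or more arrays were left out of testing. Among the members, Ifi35 reached it on 4 arrays and Irf7 104669_at and Usp18 on 2 each, so these 3 were tested. Ifit3, Isg15 and Irf7 162202_f_at reached it on 1 array each and were not. None of the 8 probe sets other than that of Ifi35, counted at any intensity, had all 4 castaneus and ssp arrays above the other 4. That arrangement was held by 3.14% of all 8874 probe sets tested, a set that leaves out most of these 8. By limma's moderated F test over the 4 groups, neither of the 2 tested probe sets passed (adjusted p under 0.05 and group means at least 1 log2 apart), and neither had an unadjusted p under 0.05. Over all probe sets tested 1.76% passed. In none of the 6 pairs of groups did either pass. Over all tested probe sets, counting both directions, 0.349% passed between castaneus and ssp, 0.676% between castaneus and domesticus, 0.947% between castaneus and musculus, 0.687% between ssp and domesticus, 0.980% between ssp and musculus and 0.744% between domesticus and musculus, and 2.33% in at least 1 pair. Neither tested member had an unadjusted p under 0.05 in any pair. At shares this low, 2 or 8 probe sets would mostly hold none. The counts therefore do not tell whether the other members share the pattern of Ifi35.

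Irf7 is the transcription factor that amplifies the type I response by inducing interferon alpha genes. Its probe set 104669_at read 59.7 and 154.5 in castaneus, 153.7 and 75.2 in ssp, 59.5 and 63.5 in domesticus and 46.2 and 51.8 in musculus. The castaneus and ssp means, 96.0 and 107.5, lay above the domesticus and musculus means of 61.5 and 48.9. One array of castaneus, however, matched the domesticus arrays. The largest difference, ssp over musculus, was 2.20-fold (log2 difference 1.14, SE 0.53) and did not pass (limma, adjusted p = 0.437). The F test over the 4 groups did not pass either (limma, adjusted p = 0.548).

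The second Irf7 probe set, 162202_f_at, whose suffix marks probes that can match related transcripts, read 79.7 and 133.8 in castaneus and 69.8 and 104.8 in ssp. It read 93.7 and 29.0 in domesticus and 47.3 and 44.2 in musculus. As in the first probe set, castaneus and ssp had the highest means, but domesticus replicate 1 lay among their arrays. Over the 8 arrays the log2 values correlated with those of Ifi35 at Pearson r = 0.53 for the first Irf7 probe set and 0.81 for the second. Among the other members r was 0.40 for Ifit3, 0.22 for Ifit2, -0.07 for Usp18, -0.24 for Mx1 and -0.31 for Isg15, and Ifit1, at the floor throughout, gave none. These are descriptions over arrays that share 4 RNA samples.

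Usp18 removes Isg15 from proteins and also blocks signalling at Ifnar2, so it restrains the response. Its probe set read 30.4 and 113.4 in castaneus, 35.0 and 87.7 in ssp, 124.0 and 36.9 in domesticus and 90.4 and 73.0 in musculus. Every group overlapped every other, and replicate arrays differed by up to 3.73-fold. The means, 58.7, 55.4, 67.6 and 81.2 in that order of groups, spanned 1.47-fold and did not pass (limma, F test adjusted p = 0.964).

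Isg15 is a ubiquitin-like protein that is joined to other proteins during the response. It read 25.5 and 39.9 in castaneus, 143.6 and 33.2 in ssp, 44.4 and 94.2 in domesticus and 56.8 and 29.6 in musculus. A single array, ssp replicate 1, was bright, and its partner lay among the other groups. Isg15 was lowest on average in castaneus (31.9), the group with the highest Ifi35.

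The Ifit proteins bind viral RNA or translation factors and limit translation. Ifit1 read 2.80 to 10.1 on all 8 arrays, below the floor in every group, and gives no fold. Ifit2 read 17.0 and 35.0 in castaneus, 74.7 and 27.4 in ssp, 59.0 and 9.10 in domesticus and 21.1 and 17.7 in musculus. Both ssp arrays lay above both musculus arrays, and 1 array was at the floor in each of the other 3 groups.

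Ifit3 was the member of this family with the clearest order. It read 77.2 and 36.0 in castaneus, 112.8 and 142.4 in ssp, 89.5 and 60.7 in domesticus and 50.2 and 19.4 in musculus. The ssp arrays lay above all others, and the geometric means were 52.7, 126.7, 73.7 and 31.2 in the same order of groups. The 4.06-fold difference of ssp over musculus could be tested only when the filter on dim probe sets was left out. It then did not pass (limma, adjusted p = 0.271), and neither did the F test over the 4 groups (limma, adjusted p = 0.414). On the log2 scale the difference of ssp over musculus was 2.02 (SE 0.59), against 2.71 without musculus replicate 1 and 1.34 without musculus replicate 2. Ifit2, Ifit3 and Isg15 were each highest on average in ssp, with castaneus means of 25.6, 52.7 and 31.9.

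Mx1 encodes a dynamin-like GTPase that restricts influenza viruses in the nucleus of mouse cells. Its probe set was at the floor on both ssp arrays, which read 13.0 and 9.30. It read 90.1 and 101.6 in castaneus, 115.1 and 92.0 in domesticus and 91.6 and 56.5 in musculus. The lowest of these 6 arrays was 56.5, so ssp did not overlap any other group. Because both ssp arrays were at the floor, Mx1 was at least 5.12-fold lower in ssp than in castaneus, at least 5.50-fold lower than in domesticus and at least 3.85-fold lower than in musculus. These bounds move with the floor: the difference between ssp and domesticus, 2.46 log2, was 3.12 log2 with the floor at the 5th percentile and 1.44 log2 at the 20th. Mx1 reached the 40th percentile on no array and so was not tested. With the filter left out its F test had an unadjusted p of 0.000753 (limma) and did not pass after adjustment over all 12422 probe sets (adjusted p = 0.0780). Ifi35 and Mx1 thus differed in ssp, where Ifi35 was 8.04-fold above domesticus and Mx1 was below it.

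Ifi35 aside, the wider interferon pathway was described by 222 gene symbols in 10 sub-lists by role, of which 120 genes had 148 probe sets on the array and 96 probe sets of 84 genes were tested. One of the 96 passed limma's F test, Socs2, against 1.76% of all probe sets tested. The median span between the highest and lowest group mean was 0.91 log2 in the list and 0.81 log2 over all probe sets tested. An unadjusted p under 0.05 was found for 19 of the 96 (19.8%), and for 15.9% of all probe sets tested. The group with the highest mean was castaneus for 22, ssp for 26, domesticus for 21 and musculus for 27 of the 96. Over all probe sets tested the shares were 24.0%, 28.8%, 21.6% and 25.6% in the same order. The list shares were 22.9%, 27.1%, 21.9% and 28.1%, so castaneus and ssp, the groups with high Ifi35, led the list at shares close to those of the whole array.

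**Figure D2:**
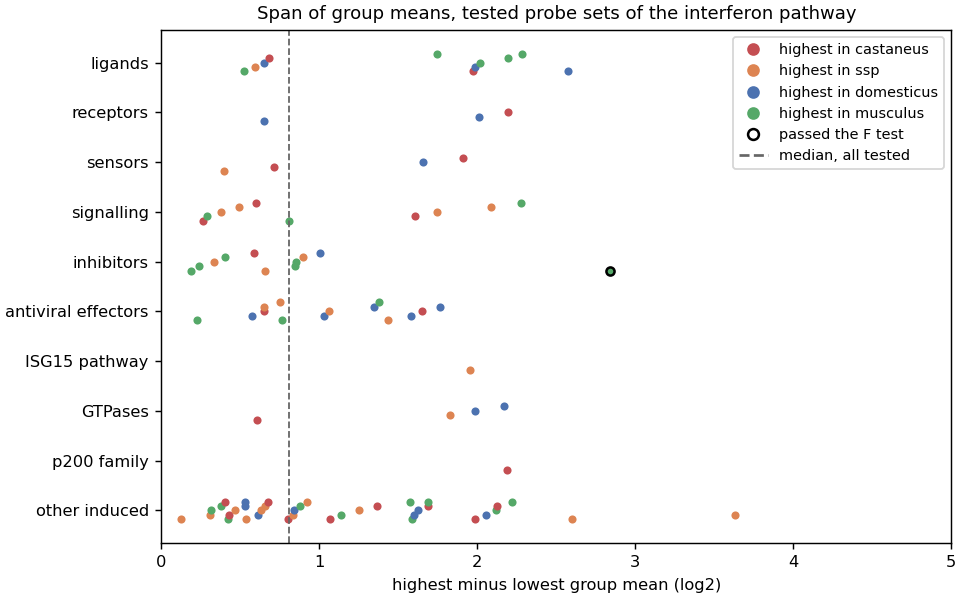
Highest minus lowest group mean (log2, horizontal axis) of each of the 96 tested probe sets of the interferon pathway, by sub-list, coloured by the group with the highest mean. The dashed line is the median of all probe sets tested (0.81), and the black ring marks Socs2, the probe set that passed the F test; each colour is spread over the sub-lists.

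The arrangement of Ifi35, with all 4 castaneus and ssp arrays above the other 4, was held by 3 of the 96 tested pathway probe sets, or 3.12%, against 3.14% of all probe sets tested. They belonged to Ifngr1, Il18 and Wars, named here because of their values. Il18 is a cytokine that promotes interferon gamma release. It read 364.3 and 476.6 in castaneus, 340.5 and 330.3 in ssp, 61.5 and 184.0 in domesticus and 119.2 and 216.8 in musculus, and the F test did not pass (limma, adjusted p = 0.276). Ifngr1, the ligand-binding chain of the interferon gamma receptor, read 173.5 and 265.4 in castaneus, 283.4 and 151.9 in ssp, 56.8 and 132.1 in domesticus and 20.9 and 105.6 in musculus. It had the largest span among the receptors, 4.57-fold, and did not pass (limma, adjusted p = 0.409). The other tested receptor chain of interferon gamma, Ifngr2, was instead lowest in castaneus, at 123.3 against 392.1 in ssp, 496.2 in domesticus and 369.7 in musculus (limma, F test adjusted p = 0.162). The type I receptor chains Ifnar1 and Ifnar2 were too dim to be tested.

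Nmi, the protein partner of Ifi35, was also too dim to be tested. It read 54.0 and 10.7 in castaneus, 18.5 and 74.5 in ssp, 31.2 and 8.80 in domesticus and 32.4 and 9.50 in musculus. Each group had 1 array at the floor, and the groups overlapped. Irf9, a DNA-binding factor of the type I response, read 18.7 and 124.7 in castaneus, 145.2 and 135.3 in ssp, 37.7 and 121.3 in domesticus and 43.7 and 25.0 in musculus. Its ssp arrays were the brightest, and the F test did not pass (limma, adjusted p = 0.595).

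Socs2, which belongs to the suppressor of cytokine signalling family and is best known for restraining growth hormone signals, fell in domesticus. It read 145.3 and 129.8 in castaneus, 255.7 and 236.3 in ssp, 49.2 and 49.0 in domesticus and 346.0 and 358.0 in musculus. No group overlapped another. Over the 4 groups it spanned 7.17-fold (limma, F test adjusted p = 0.0180). It was 5.01-fold higher in ssp than in domesticus (log2 difference 2.32, SE 0.23; limma, adjusted p = 0.0207), a pair in which 0.687% of all tested probe sets passed. In domesticus it was 7.17-fold lower than in musculus (log2 difference -2.84, SE 0.23; limma, adjusted p = 0.00989), a pair in which 0.744% passed. The F test call was lost without either castaneus array (adjusted p = 0.0759 and 0.0725), either domesticus array (0.0956 and 0.105) or either musculus array (0.0770 and 0.0937) and kept without either ssp array (limma). Of the pair calls, that of ssp over domesticus was lost in each of the 8 fits with 1 array left out (limma, adjusted p = 0.0558 to 0.159). That of domesticus and musculus was lost without either array of those 2 groups (limma, adjusted p = 0.0927 to 0.125). The other Socs genes on the array did not pass or were too dim to be tested, Socs1 among them at 187.7 to 213.9 in all groups.

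One more pathway gene passed in a single pair. Psme1, a subunit of the interferon-inducible activator of the proteasome, read 71.1 and 106.9 in ssp against 360.1 and 399.2 in musculus, with 304.3 and 225.2 in castaneus and 317.2 and 381.2 in domesticus. The ssp arrays lay below all others. In ssp it was 4.35-fold lower than in musculus (log2 difference -2.12, SE 0.31; limma, adjusted p = 0.0436), where 0.980% of all tested probe sets passed. The call was lost in each of the 8 fits that left out 1 array (limma, adjusted p = 0.0777 to 0.197), with median centring (0.0532), with no filter (0.0755) and with the replicate number as a block (0.0785). A second Psme1 probe set was too dim to be tested.

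The other sub-lists had no probe set that passed, and the gene with the largest span in each is given as values. Ccl5, a chemokine for T cells, averaged 31.9 in castaneus, 395.5 in ssp, 40.7 in domesticus and 121.7 in musculus, a 12.4-fold span with 1 castaneus array at the floor (limma, F test adjusted p = 0.0564). Both of its ssp arrays, 470.5 and 332.5, lay above all others. Irf8, a transcription factor of macrophages and dendritic cells, averaged 133.1, 93.3, 235.4 and 451.8 in the same order (adjusted p = 0.0847 by limma). It was brightest in musculus, where Ifi35 was dim.

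Uba7, the enzyme that activates Isg15 for transfer, averaged 37.3 in castaneus, 144.4 in ssp, 106.0 in domesticus and 89.5 in musculus (limma, F test adjusted p = 0.183). Gbp2, a GTPase induced by interferon gamma, averaged 19.8, 66.3, 89.0 and 25.5 (limma, 0.343), and Ifitm1, a membrane protein that hinders viral entry, 58.4, 114.5, 197.9 and 170.2 (limma, 0.397). All 3 were lowest in castaneus. Ifi207, of the family that senses DNA, averaged 151.6, 33.3, 53.1 and 51.2 (limma, 0.286) and Tlr7, a receptor for single-stranded RNA, 79.2, 53.1, 21.1 and 23.4 (limma, 0.468). Both were highest in castaneus. Ifna4, an interferon alpha gene, averaged 51.1, 33.9, 201.2 and 150.9 by a probe set whose suffix marks probes that can match related transcripts (limma, 0.332), and a second Ifna4 probe set was lowest in domesticus at 20.5.

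**Figure D3:**
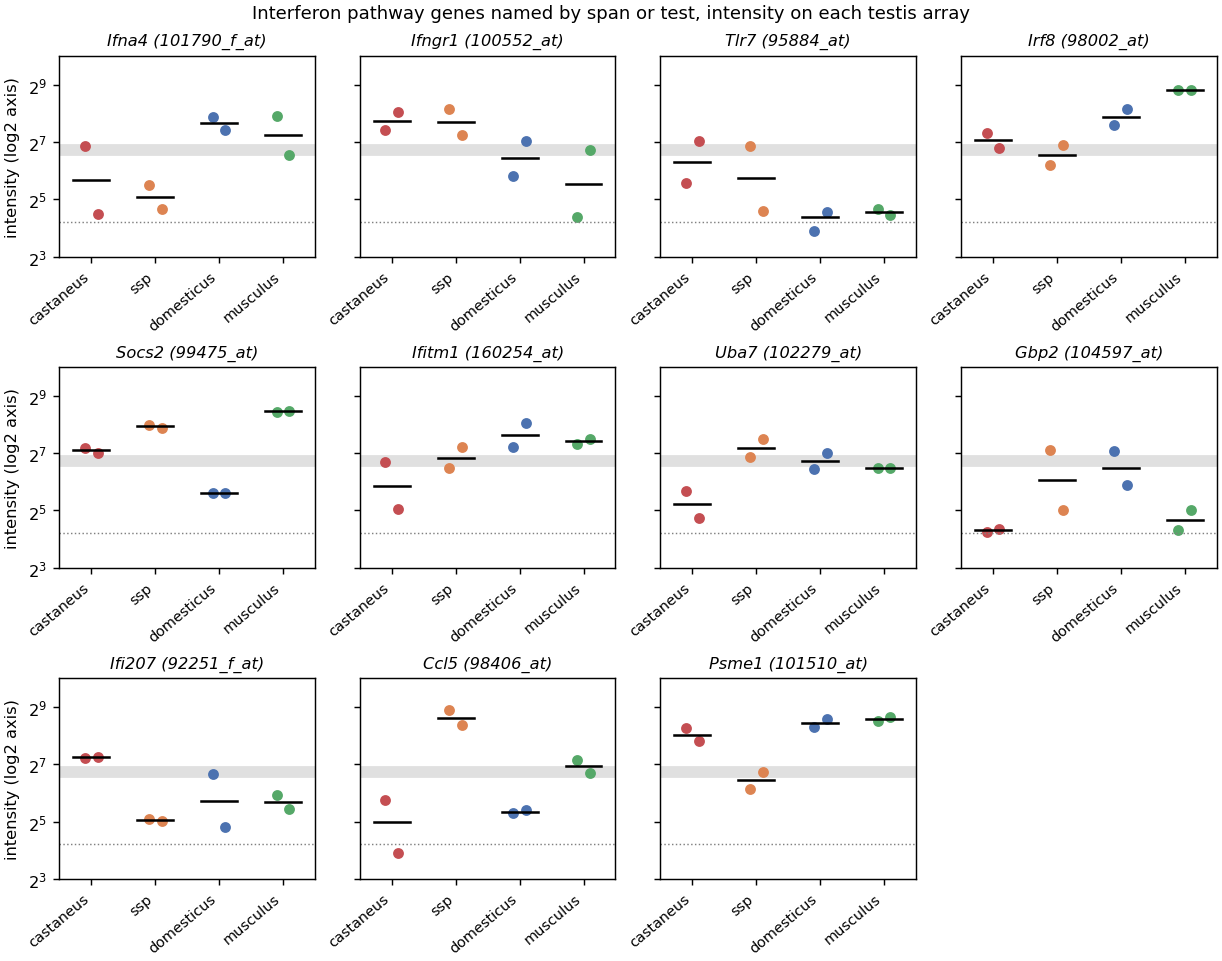
Intensity on each array (log2 axis) of the 11 pathway probe sets with the largest span in their sub-list or a call in a pair of groups, by group. Points are arrays, bars geometric means, the dotted line the floor and the grey band the 40th percentile of the arrays; Ccl5 is highest in ssp, Irf8 and Socs2 in musculus, and Ifi207 in castaneus.

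The label of the tissue was checked by markers, and transcripts of spermatids were abundant in all groups. Prm1, a protamine that packs sperm DNA, averaged 64790 in castaneus, 68067 in ssp, 47842 in domesticus and 50063 in musculus. The 13 spermatid probe sets summed to between 241330 and 376237 on the 8 arrays, although 1 of them, for Prm2, was at the floor on all arrays. By group the sum ran from 288008 to 352305 in castaneus, 319822 to 376237 in ssp, 261447 to 267245 in domesticus and 241330 to 291090 in musculus. The 7 spermatocyte probe sets summed to 52529 to 62523 in castaneus, 53404 to 60334 in ssp, 44035 to 44899 in domesticus and 46612 to 48202 in musculus. The spermatocyte sums of castaneus and ssp thus lay above those of domesticus and musculus, as Ifi35 did, though by far less than its 7.12 to 19.3-fold. They were mostly Ldhc, which averaged 39037 in castaneus, 37931 in ssp, 31639 in domesticus and 30183 in musculus. Of the other tested spermatocyte genes, Pgk2 was highest on average in castaneus, Dmc1 and Hspa2 in ssp, and Sycp1 and Ccna1 in musculus. The part of germ cell content in the Ifi35 result was not tested. None of the 11 spermatid and 6 spermatocyte probe sets tested passed limma's F test, where 1.76% of all did.

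The summed markers of macrophages did not follow Ifi35. The 21 macrophage probe sets, of 13 of the 14 genes listed, summed to 3120 and 3242 on the castaneus arrays, 3656 to 4422 in ssp, 4244 to 4251 in domesticus and 5299 to 6378 in musculus. The sum was thus lowest in castaneus, where Ifi35 was highest. It gives most weight to bright probe sets, among them 1 each of Csf1r and C1qb, and single genes differed in order. Among the tested probe sets, those of C1qa, C1qc, Cd14, Lyz2 and Mpeg1 had their lowest mean in castaneus. By contrast, 1 probe set each of Fcgr1 and Msr1 had its highest means in castaneus and ssp. The part of macrophage content in the Ifi35 result was not tested. The 11 probe sets of 7 general leukocyte genes summed to 519.3 to 1206 in castaneus, 954.0 to 1076 in ssp, 1235 to 1748 in domesticus and 1429 to 1495 in musculus. The 14 T and NK cell probe sets summed to 985.5 to 1199 in castaneus, 1208 to 1538 in ssp, 1122 to 1278 in domesticus and 562.2 to 1349 in musculus, with every group overlapping at least 1 other. The 9 neutrophil probe sets summed to 712.6 to 1066 in castaneus, 940.0 to 974.5 in ssp, 848.8 to 850.1 in domesticus and 630.9 to 861.9 in musculus. The ssp sums lay above those of domesticus and musculus, and the castaneus sums overlapped all 3 other groups. The 8 B and plasma cell probe sets summed to 1065 to 1172 in castaneus, 1026 to 1053 in ssp, 733.0 to 932.7 in domesticus and 778.2 to 1672 in musculus. Jchain, which joins antibody units in plasma cells, had all castaneus and ssp arrays above the other 4, with means of 280.7 in castaneus, 166.3 in ssp, 132.9 in domesticus and 126.6 in musculus (limma, F test adjusted p = 0.232). None of the 14, 5, 5, 5 and 5 probe sets tested in these 5 lists passed limma's F test, where 1.76% of all did. None of these markers was at the floor on all arrays, but the defining macrophage gene Adgre1 was too dim to be tested by either of its probe sets, as was Ptprc by all of its 3.

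The Leydig cell sum was 4696 to 5953 in castaneus, 3591 to 3600 in ssp, 5087 to 5132 in domesticus and 14033 to 15045 in musculus. Of its 10 tested probe sets 2 passed limma's F test, 1 each of Cyp17a1 and Star, where 1.76% of all did. The Sertoli cell sum differed little, at 11890 to 13006 in castaneus, 11790 to 11978 in ssp, 12513 to 12696 in domesticus and 12644 to 13176 in musculus. It was mostly Clu, and the probe sets of the other Sertoli genes spanned 1.25 to 2.64-fold between group means. None of the 10 Sertoli probe sets tested passed limma's F test, where 1.76% of all did. The sum over endothelial markers was 1486 to 1550, 880 to 1163, 1078 to 1189 and 1512 to 1642 in the same order of groups. The peritubular sum was 1279 to 1536, 1338 to 2287, 1186 to 1445 and 1339 to 1671, and the spermatogonium sum 3592 to 6890, 5711 to 9074, 5810 to 8242 and 5759 to 9230. In none of these 5 lists did both castaneus and ssp lie above domesticus and musculus.

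Of the 3 red blood cell probe sets, 1 had the arrangement of Ifi35 and is named for it. Slc4a1, the anion exchanger of the red cell membrane, read 112.5 and 85.1 in castaneus, 174.6 and 116.4 in ssp, 23.7 and 18.4 in domesticus and 31.3 and 25.1 in musculus. All 4 castaneus and ssp arrays lay above the other 4. Slc4a1 reached the 40th percentile only on castaneus replicate 1 and ssp replicate 1, so it was tested only through groups where it was bright. Its pass of limma's F test (adjusted p = 0.0324) is therefore given as a description. The call was lost with no filter (limma, adjusted p = 0.0627), with a trended and robust variance (0.169) and in 6 fits with 1 array left out. Slc4a1 was too dim to be tested with the filter at the 60th percentile, and without castaneus replicate 1 or ssp replicate 1. The sum of the 3 erythroid probe sets did not share this order, at 2022 to 5506 in castaneus, 1749 to 5568 in ssp, 1577 to 3171 in domesticus and 14001 to 17707 in musculus. It was mostly Hba-a1, a haemoglobin chain, which averaged 2943 in castaneus, 2684 in ssp, 1997 in domesticus and 15039 in musculus (limma, F test adjusted p = 0.244). Alas2, the remaining erythroid gene measured, was also highest in musculus, at 675.8 against 289.3 in castaneus, 277.8 in ssp and 208.6 in domesticus. Of the 92 marker probe sets tested over all lists, 7 (7.61%) had all castaneus and ssp arrays above the other 4, against 3.14% of all probe sets tested. They belonged to Slc4a1, Jchain, the spermatocyte genes Hspa2, Ldhc and Pgk2 and the spermatid genes Gapdhs and Tnp1, and their part in the Ifi35 result was not tested.

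The 5 probe sets most like Ifi35 were sought among the 3028 tested probe sets with 1 symbol and group means at least 1 log2 apart. Likeness was the Pearson correlation of log2 intensity with Ifi35 over the 8 arrays, which are 4 RNA samples on 2 arrays each. Tom1l1, an endosomal adaptor protein, had r = 0.99. It read 358.3 and 329.9 in castaneus, 268.2 and 301.7 in ssp, 160.0 and 119.0 in domesticus and 182.5 and 130.5 in musculus. Its range was far narrower than that of Ifi35, 2.49-fold against 19.3-fold between group means, while the order of groups was the same.

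Ssr1, a subunit of the translocon-associated protein complex of the endoplasmic reticulum, had r = 0.97 and averaged 1217 in castaneus, 904.5 in ssp, 404.7 in domesticus and 390.3 in musculus. Dntt, the terminal transferase of developing lymphocytes, had r = 0.95 by a probe set with a suffix for related transcripts and averaged 146.1, 54.3, 27.8 and 20.8. Reg3g, an antibacterial lectin, had r = 0.95 and averaged 246.0 in castaneus, 91.6 in ssp and 34.3 in musculus, with both domesticus arrays at the floor. Sergef, a guanine nucleotide exchange factor family member, had r = 0.94 and averaged 392.8, 215.5, 57.4 and 36.8. None of the 5 is a member of the interferon list. Tom1l1 lies on chromosome 11, as Ifi35 does, and Ssr1, Dntt, Reg3g and Sergef lie on chromosomes 13, 19, 6 and 7. The 5 were chosen for this likeness out of many candidates, so their values are a description.

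**Figure D4:**
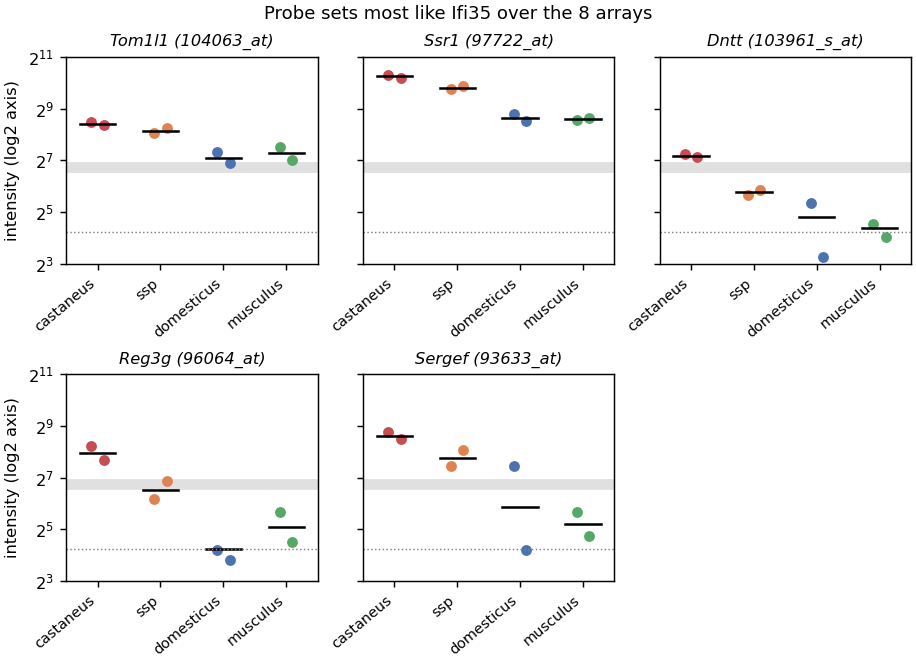
Intensity on each array (log2 axis) of the 5 probe sets with the highest correlation with Ifi35 over the 8 arrays, by group. Points are arrays, bars geometric means, the dotted line the floor and the grey band the 40th percentile of the arrays; each is highest in castaneus, then ssp.

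Ifi35 lies on chromosome 11, Ifit1, Ifit2 and Ifit3 lie together on chromosome 19, and Isg15, Irf7, Usp18 and Mx1 lie on chromosomes 4, 7, 6 and 16. Of the 10 protein-coding genes on either side of Ifi35 in the RefSeq gene order, 7 had 8 probe sets on the array, all of them tested. None of the 8 passed limma's F test, where 1.76% of all did, and none had all castaneus and ssp arrays above the other 4, where 3.14% of all did. The closest measured gene, Rnd2, 2 genes away, averaged 390.3 in castaneus, 105.9 in ssp, 281.0 in domesticus and 208.6 in musculus (limma, F test adjusted p = 0.331), and was lowest in ssp. Brca1, of DNA repair by recombination, averaged 203.0, 166.2, 185.2 and 99.8 (limma, 0.488). At those shares, 8 probe sets would mostly hold none, so these counts do not tell whether genes around Ifi35 share its level. Neither gene directly beside Ifi35 was measured. This window was drawn after the values of Ifi35 were known.

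**Figure D5:**
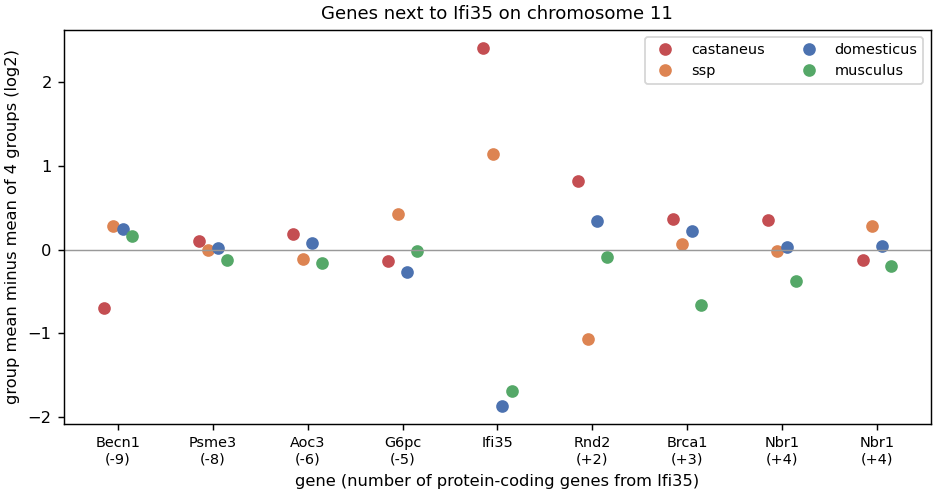
Group mean minus the mean of the 4 groups (log2) for Ifi35 and the measured genes within 10 protein-coding genes of it on chromosome 11, in gene order, with the number of genes from Ifi35 in brackets. Points are group means of 2 arrays; Ifi35 spans 4.27 log2, and the next widest, Rnd2, spans 1.88 log2.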

How the data were processed

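The authors deposited 1 linear intensity per probe set and array, and all 8 columns were matched to samples by name. How probes were summarised and scaled is not given in the labels. The mean of the deposited values with 2% trimmed from each end was 495.6 to 496.7 on the 8 arrays, so no scaling was added to the deposited values, which were floored at the 10th percentile (18.7) and taken to log2. Probe sets were named from the platform annotation (10833 had 1 symbol, 396 several and 1193 none), with symbols updated through Entrez numbers to RefSeq of GRCm38.p6. The 8874 probe sets that reached the 40th percentile on 2 or more arrays were fitted with limma 3.58.1 in R 4.3.3, with 1 mean per group over all 8 arrays, giving 4 residual and 2.34 prior degrees of freedom. P-values were Benjamini-Hochberg adjusted over all probe sets tested, within each pair for pairs. The number of arrays limits precision. The fit was tested on simulated data.

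Members, lists and thresholds were chosen with earlier results of these data known. The naming rule takes all members, pathway genes that passed the F test or else the largest span of each sub-list, and the 5 probe sets most like Ifi35; other genes are named for their role or, where said, after their values were seen.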

Additional observations from a re-analysis of the deposited data

How the results depend on the processing

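For Ifi35 the log2 difference of ssp over musculus was 2.83, and over the 8 sets with 1 array left out it ran from 2.27 to 3.40. Other floors, median centring and quantile normalization gave 2.57 to 2.83. No member other than Ifi35 passed in any pair in fits on the 4 arrays of that pair. In the alternative runs on all 8 arrays none passed among the 4 groups or in any pair, and 0.25% to 5.25% of all probe sets tested passed the F test. These runs tested 8 of the member probe sets with no filter, 0 with the filter at the 60th percentile and 2 otherwise. With no filter 1 of the 8 had an unadjusted p under 0.05 by limma's F test. The number of pathway probe sets that passed was 1 as reported and with the replicate number as a block. It was 3 of 96 tested with the floor at the 20th percentile, 5 of 47 with the filter at the 60th percentile and 6 of 96 with a trended and robust variance, where 2.42%, 5.25% and 4.32% of all probe sets tested passed, and it ran from 0 to 1 with 1 array left out; the causes were not tested. For 7 member differences, each from the lowest to the highest group mean as reported, 16 alternatives gave 112 values. Of these, 111 kept direction, 6 of them moving by more than the replicate spread (Ifit3, Mx1 and Isg15), and 1 reversed. The reversed difference, Usp18 in musculus over ssp, ran from -0.11 log2, without ssp replicate 1, to 1.21 log2 with 1 array left out. Many of the values could not change, so the count is no measure of stability. Filters, the variance setting and the block leave group means as they are, and an array left out of another group acts only through the floor. Deviations of same-numbered arrays from their group means correlated between groups at 0.03 to 0.17, weak but positive in every pair of groups. The main fit did not pair the arrays by number, so it does not remove an effect of replicate number. With the block, 42 in place of 156 of all probe sets passed, and Psme1 was the only pair call lost among those reported. Most values of the other 7 genes lay below the 40th percentile of their array, and this dim signal limits what can be said of them.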
